A study of Homo sapiens with 4 samples.

Results

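LIN28A, LIN28B, L1TD1, IGF2BP1, IGF2BP2 and IGF2BP3 encode RNA-binding proteins found in early embryonic cells. They were chosen by name, as the 6 rows of the expression table with these gene symbols, out of 16174 genes listed. All 6 had a value above 0 in each of the 4 libraries, and 4 of them (LIN28A, L1TD1, IGF2BP1 and IGF2BP3) entered the test, which took the 8274 genes whose mean was 1 TPM or more (TPM being transcripts scaled by length and by the library's total). None of these 4 passed the test for guide arm or for day, which 0% and 0.0363% of the 8274 genes passed. LIN28B and IGF2BP2, below that mean, did not pass in a fit without this filter. The levels of the 6 genes differed widely, and the values of IGF2BP2 and IGF2BP3 depended in single libraries on 1 read placed on a short transcript.

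The study sequenced cDNA of polyadenylated RNA as Nanopore long reads from H9, an established human embryonic stem cell line kept in the primed state. The SNHG26 arm carried a doxycycline-inducible dCas9 fused to the KRAB repressor together with 4 pooled guides against SNHG26, a long non-coding RNA and snoRNA host gene. The control arm carried the same dCas9-KRAB and non-targeting guides. Both arms had been transfected with piggyBac vectors and selected with puromycin, with no clone named in the labels, and both received 1 µg/mL doxycycline for 2 or 3 days, so that every library, controls included, came from cells given the repressor and its inducer. There was 1 library for each arm and day, 4 in all. The libraries of an arm are therefore different days, nothing in the labels says that they were separate cultures, and p-values measure only the spread between these libraries.

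LIN28A and LIN28B bind precursors of the let-7 microRNAs through a cold-shock domain and zinc knuckles that recognise a GGAG element, and they block maturation of let-7. They also bind many mRNAs. L1TD1 descends from the RNA-binding ORF1 protein of LINE-1 retrotransposons and is a marker of undifferentiated human stem cells. The 3 IGF2BP proteins share RNA recognition motifs and KH domains, bind mRNAs including those with N6-methyladenosine (m6A), and stabilise or localise them. Let-7 in turn represses several of these genes through sites in their 3′ untranslated regions.

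The sequences behind this circuit are shown because they tie the family together. Only mature sequences of the 5′ arm (names ending in 5p) were examined. All 9 such let-7 and miR-98 sequences in RefSeq (GRCh38.p14) carried the same seed at bases 2 to 8, in capitals for 3 of them, 5′ to 3′.
hsa-let-7a-5p: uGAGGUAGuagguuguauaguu
hsa-let-7g-5p: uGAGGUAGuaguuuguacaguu
hsa-miR-98-5p: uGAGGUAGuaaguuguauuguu
Of the 12 hairpins that give them, 9 held GGAG after the 5′ arm. MIRLET7G, at chr3:52268278-52268361 on the minus strand, held it (capitals), and MIRLET7A3, at chr22:46112749-46112822 on the plus strand, did not.
MIRLET7G: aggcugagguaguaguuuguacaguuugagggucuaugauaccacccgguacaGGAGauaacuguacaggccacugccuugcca
MIRLET7A3: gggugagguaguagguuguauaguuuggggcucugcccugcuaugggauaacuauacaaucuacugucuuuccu

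The complement of the seed, CTACCTC, was searched on the transcript strand of the 3′ untranslated region of the selected coding transcript of each member. It was found 11 times in 5 of the 6 members, and 8 of the 11 matches were followed by A. LIN28B and IGF2BP1 had 4 matches each, LIN28A, IGF2BP2 and IGF2BP3 had 1 each, and L1TD1 had 0 in its 956 bases. Of 19133 genes with such a region, 9.48% had a match. The share with a match rises with length, as seen among regions of 0.8 to 1.25 times the length of the member's own. It was 6.15% for L1TD1 (956 bases), 11.5% for IGF2BP2 (1792), 12.1% for IGF2BP3 (2153) and 16.8% for LIN28A (3264). For LIN28B (4549) it was 23.5% and for IGF2BP1 (6206) 29.8%. At least 4 matches were held by 0.195% of the regions near LIN28B in length and by 0.563% of those near IGF2BP1. A match is a description of letters and not a measured site. The following 24-base windows hold 1 match for each of the 5 genes, with the match in capitals. In GRCh38 the capitals lie at chr1:26427363-26427369 (plus strand), chr6:105078827-105078833 (plus), chr17:49051076-49051082 (plus), chr3:185644221-185644227 (minus) and chr7:23311796-23311802 (minus), in the same order.
LIN28A: gcacagcctattgaaCTACCTCat
LIN28B: acccggttgcaaagtCTACCTCat
IGF2BP1: tgtgtgcgaagtaaaCTACCTCaa
IGF2BP2: aacacacagaagaagCTACCTCag
IGF2BP3: tgcatttttactcaaCTACCTCag

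The deposited TPM values divide reads by the genomic span of a transcript, introns included, and the worth of 1 read could be recovered from the low values. On a span of 10 kb, 1 read was worth 0.729 TPM in the SNHG26-guide library of day 2, 0.653 in that of day 3, 0.803 in the control library of day 2 and 0.672 in that of day 3. At most 947338 to 1220265 reads per library lay behind the table. SNHG26 itself was listed at 0 with SNHG26 guides on day 2 and had 0.933 TPM on day 3, against 2.98 and 4.03 TPM with control guides. Both SNHG26-guide values lay below both control values, as for 13.2% of the genes tested. The log2 change of -1.69 (SE 0.58) did not pass the limma test (adjusted p = 0.935). The reads and spans behind the SNHG26 values were not resolved. Pluripotency markers were abundant in every library: 9 of 10 listed genes summed to 1678 and 1799 TPM in the SNHG26 arm and to 1785 and 1881 TPM in the control arm. Of 7 mesendoderm markers, 3 were listed: EOMES and FOXA2 were at 0 in all 4 libraries, and MIXL1 had 1.98 TPM in the control library of day 3 and 0 in the others. Of 7 amnion and trophectoderm markers, 2 were listed: ISL1 was at 0 in all 4, and KRT7 had 0.417 TPM with SNHG26 guides and 1.29 TPM with control guides on day 3 and 0 on day 2. Of 6 neuroectoderm markers, 2 were listed. On days 2 and 3 they summed to 24.5 and 21.3 TPM in the SNHG26 arm and to 23.2 and 17.1 TPM in the control arm. Of the fibroblast markers, 4 of 7 were listed, and they summed to 9.53 to 11.0 TPM in the SNHG26 arm and 11.9 to 15.7 TPM in the control arm. In bulk RNA, fewer cells of a type and less RNA per cell cannot be told apart.

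Each of the 24 member values (6 genes in 4 libraries) equalled a single combination of whole reads among those searched, within 1e-07 of a read. The spans allowed were the listed span of the gene, which need not match an annotated transcript, and its annotated spans. For the IGF2BP genes, only combinations with few reads outside the listed span were searched. This gave 890 reads for L1TD1 over the 4 libraries, 774 for IGF2BP1, 140 for IGF2BP3, 95 for LIN28A, 68 for LIN28B and 21 for IGF2BP2. Rate ratios below compare such reads per unit of library depth. Their exact 95% Poisson intervals, and the read numbers themselves, cover counting error only, since PCR copies were not marked by molecular identifiers.

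**Figure D1:**
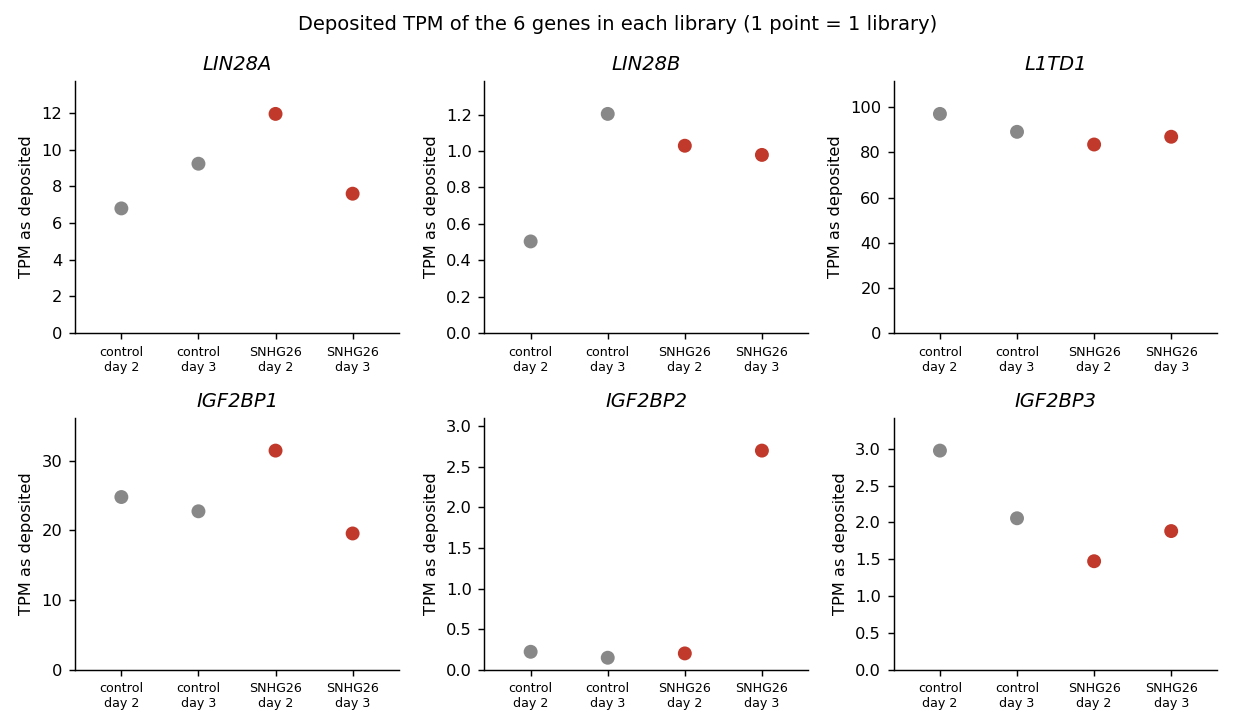
Deposited TPM of each gene (vertical axes, a separate linear scale for each gene) in the SNHG26-guide and control-guide libraries on days 2 and 3 of doxycycline; each point is 1 library. The arms overlap for LIN28A, LIN28B, IGF2BP1 and IGF2BP2, and the IGF2BP2 value of 2.70 TPM in the SNHG26-guide library of day 3 stands above its other values of 0.148 to 0.221 TPM.

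The order of the levels depended on the length used. By mean TPM over the 4 libraries, L1TD1 came first at 89.2, followed by IGF2BP1 at 24.6, LIN28A at 8.90, IGF2BP3 at 2.10, LIN28B at 0.928 and IGF2BP2 at 0.817. The mean of L1TD1 lay above 90.0% of the genes tested, that of IGF2BP1 above 78.0%, that of LIN28A above 60.6% and that of IGF2BP3 above 22.2%. Because these TPM values are per base of genomic span, a gene with long introns is given a low value. The reads were therefore also divided by the spliced length of the transcript. On that scale L1TD1 had 57.8 ± 4.66 reads per kb (SD, n = 4 libraries, unadjusted for depth) and IGF2BP1 had 23.4 ± 3.51. IGF2BP3 had 8.24 ± 1.42, LIN28A 5.93 ± 1.58, LIN28B 3.09 ± 1.16 and IGF2BP2 1.42 ± 0.341 reads per kb. IGF2BP3 thus moved above LIN28A on the mean per spliced kb. The order of this pair was not the same in every library: their ranges, 6.82 to 9.88 for IGF2BP3 and 3.99 to 7.73 for LIN28A, overlapped. The ranges of LIN28A and LIN28B (1.45 to 4.18) and of LIN28B and IGF2BP2 (1.08 to 1.90) also overlapped across libraries, but within each of the 4 libraries LIN28A was above LIN28B and LIN28B above IGF2BP2. On that scale L1TD1 (52.5 to 62.1) and IGF2BP1 (20.8 to 28.3) stood apart from each other and from all the rest. In reads not divided by length they overlapped, with 202 to 239 for L1TD1 and 172 to 234 for IGF2BP1. In the SNHG26-guide library of day 2, IGF2BP1 had more reads (234) than L1TD1 (202). Whether the number of such long reads rises with transcript length was not tested, so the size of the gap rests on the length used.

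**Figure D2:**
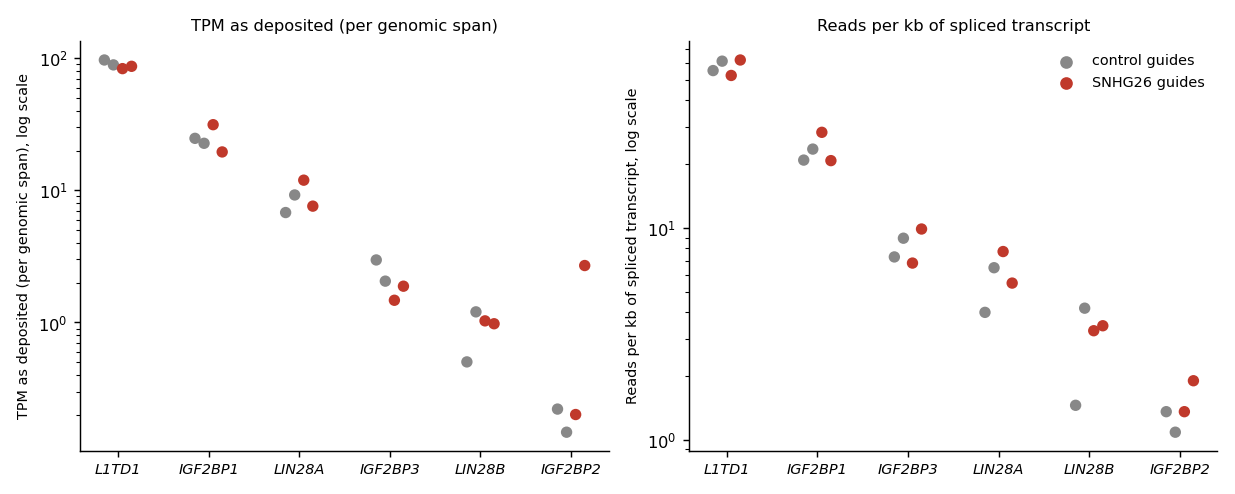
Level of each gene in each of the 4 libraries on a log axis, as deposited TPM per genomic span and as reads per kb of spliced length. L1TD1 and IGF2BP1 lead on both scales, and IGF2BP3 and LIN28A change places in the mean order.

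The guide comparison asked which genes differed between the libraries with SNHG26 guides and those with control guides. In the limma test on log2(TPM + 1) over 8274 genes, 0% passed an adjusted p under 0.05, 4.07% (337 genes) had an unadjusted p under 0.05, and none of the 4 members tested reached either. Among all genes tested, 13.2% had both SNHG26-guide values below both control values and 16.1% had both above. Of the 4 members, L1TD1 and IGF2BP3 were below without overlap and none was above. With 2 libraries against 2, an exact two-sided permutation test of a single gene cannot give a p below 0.333, which is the value for both. Fold changes on the log2(TPM + 1) scale understate those of genes with low values.

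LIN28A (chr1:26410817-26429728, plus strand) measured 11.95 and 7.60 TPM in the SNHG26-guide libraries of days 2 and 3, and 6.80 and 9.23 TPM in the control libraries. These came from 31, 22, 16 and 26 reads, in the same order. The highest value was the SNHG26-guide library of day 2 and the lowest the control library of the same day, and the arms overlapped, since on day 3 the SNHG26-guide value lay below the control value. The arm means were 9.78 ± 3.08 and 8.02 ± 1.72 TPM (SD, n = 2 libraries each), and the log2 change was 0.24 (SE 0.38, 95% interval -0.80 to 1.28; limma adjusted p = 0.982). It was 0.73 on day 2 and -0.25 on day 3, and this difference between days did not pass either (limma adjusted p = 0.961). The read rate ratio of the SNHG26 arm to the control arm was 1.19 (0.778 to 1.83). The reads were split between the listed span of 18912 bases, with 23, 12, 10 and 16 reads, and LIN28A-201, whose span of 18903 bases is nearly the same, with 8, 10, 6 and 10. The span that a LIN28A read was placed on thus had almost no bearing on its TPM.

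LIN28B (chr6:104936616-105083332, plus strand), the paralog of LIN28A, measured 1.03 and 0.978 TPM with SNHG26 guides and 0.503 and 1.20 TPM with control guides, from 18, 19, 8 and 23 reads. The control libraries held both the lowest and the highest value. The log2 change was 0.14, with 0.43 on day 2 and -0.16 on day 3. LIN28B was tested only in the fit without the filter on low values (SE 0.40; limma adjusted p = 0.992). Its rate ratio was 1.12 (0.679 to 1.87). LIN28B overlaps LIN28B-AS1 on the opposite strand over 4835 bases. That gene had 0.523 TPM in the SNHG26-guide library of day 2 and was listed at 0 in the others; whether the counting used strand is not given in the sources used here.

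No LIN28B read was placed on the full listed span. Of its 68 reads, 60 (88.2%) carried the span of 126226 bases that starts at the internal RefSeq start, chr6:104957107, and 8 (11.8%) that of LIN28B-203, which starts further upstream. The internal span had 16 and 18 reads in the SNHG26-guide libraries of days 2 and 3 and 7 and 19 in the control libraries. LIN28B-203 had 2, 1, 1 and 4, in the same order. Both spans were thus used in every library, with the internal one ahead in each. A span names the transcript that a read was assigned to, and does not show that the read reached its first base. The 250 bases before each of the 2 RefSeq starts are shown because the reads divide between transcripts that begin at or near them. The window before the internal start is chr6:104956857-104957106 (38.4% GC), and that before the upstream start is chr6:104940715-104940964 (73.6% GC), both GRCh38.p14, plus strand. LIN28B-203 itself starts at chr6:104940866, inside the upstream window, so the last part of that window is transcribed sequence of LIN28B-203 and not upstream of it.
Internal start: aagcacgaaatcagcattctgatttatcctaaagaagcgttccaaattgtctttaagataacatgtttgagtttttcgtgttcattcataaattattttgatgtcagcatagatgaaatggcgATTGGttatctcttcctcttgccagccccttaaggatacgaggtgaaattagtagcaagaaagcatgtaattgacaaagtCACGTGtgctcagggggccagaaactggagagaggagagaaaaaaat
Upstream start: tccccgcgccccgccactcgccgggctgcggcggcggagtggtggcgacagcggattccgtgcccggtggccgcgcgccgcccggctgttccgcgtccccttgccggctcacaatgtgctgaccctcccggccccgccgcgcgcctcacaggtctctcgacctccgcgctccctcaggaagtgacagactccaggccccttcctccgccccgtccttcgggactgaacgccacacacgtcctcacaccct
Both strands were searched for the CCAAT box, for the TATA box written TATAAA, for the E-box CACGTG and for the octamer ATGCAAAT. The internal window held the CCAAT box, on the strand opposite to the printed one, and the E-box, both in capitals. The annotated transcript LIN28B-201 starts at chr6:104957048, inside the internal window. The E-box lies past that start, so by this annotation it is transcribed sequence of LIN28B-201 and not upstream of it. The upstream window held none of the 4. Of 35116 RefSeq promoters, 32.0% held the CCAAT box, 10.7% the TATA box, 6.34% the E-box and 1.63% the octamer in the 250 bases before the start.

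L1TD1 (chr1:62194790-62235060, plus strand) was the highest member by TPM and the least variable. It had 83.5 and 87.0 TPM in the SNHG26-guide libraries of days 2 and 3 and 97.1 and 89.2 TPM in the control libraries. Both SNHG26-guide values lay below both control values. The reads were 202, 239, 213 and 236, and the highest TPM was 1.16 times the lowest. The arm means were 85.3 ± 2.43 and 93.1 ± 5.62 TPM (SD, n = 2 libraries each). The log2 change was -0.12 (SE 0.20, 95% interval -0.66 to 0.41; limma adjusted p = 0.982), with -0.21 on day 2 and -0.04 on day 3. The rate ratio of 0.925 had an interval of 0.809 to 1.06. Nearly all its reads carried the span of 17480 bases, which is that of the RefSeq gene. The full listed span of 40271 bases, which reaches further, had 3 and 11 reads with SNHG26 guides and 3 and 7 with control guides. That is 1.49% and 4.60% of the gene's reads in the SNHG26 arm and 1.41% and 2.97% in the control arm, higher on day 3 than on day 2 in both. These shares rest on few reads, and their difference between days was not tested.

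IGF2BP1 (chr17:48997385-49056145, plus strand) was the most abundant of its family, at 31.4 and 19.5 TPM in the SNHG26-guide libraries of days 2 and 3 and 24.8 and 22.7 TPM in the control libraries. The SNHG26-guide libraries held both the highest and the lowest value. The arm means were 25.5 ± 8.41 and 23.8 ± 1.45 TPM (SD, n = 2 libraries each), and the log2 change was 0.06 (SE 0.34, 95% interval -0.86 to 0.99; limma adjusted p = 0.998). It was 0.33 on day 2 and -0.21 on day 3, a difference that did not pass (limma adjusted p = 0.985). The reads numbered 234, 172, 173 and 195, a rate ratio of 1.04 (0.900 to 1.20). Of these, 5, 1, 2 and 1 lay on IGF2BP1-204, a retained-intron transcript with a genomic span of 12047 bases. They gave 9.62%, 2.77%, 5.38% and 2.45% of the gene's TPM. This share was higher on day 2 than on day 3 in both arms, but it rests on these few reads and its difference between days was not tested.

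IGF2BP2 (chr3:185643130-185825042, minus strand) was the lowest member by its mean, with 0.201 and 2.70 TPM in the SNHG26-guide libraries of days 2 and 3 and 0.221 and 0.148 TPM in the control libraries. The day-3 SNHG26-guide value was 18.3 times the lowest, and in that library IGF2BP2 stood above IGF2BP3 and LIN28B by TPM. The reads behind the 4 values were 5, 7, 5 and 4. In the SNHG26-guide library of day 3, 5 of the 7 reads lay on the listed span of 181913 bases and 1 on IGF2BP2-205. The remaining read lay on IGF2BP2-206, a processed transcript with a genomic span of 2644 bases at chr3:185646880-185649523. By itself this read was worth 2.47 TPM, or 91.5% of the value. With every read set to the listed span, a treatment chosen after the data had been seen, the 4 values became 0.200, 0.251, 0.221 and 0.148 TPM. Their arms still overlapped. The log2 change was 0.83 as deposited and 0.05 on whole reads. As deposited, it did not pass in the fit without the filter (SE 0.63; limma adjusted p = 0.873). The rate ratio was 1.26, with an interval of 0.486 to 3.37 for counting error alone. That interval is wide and includes 1, so these reads do not settle the direction of a change.

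IGF2BP3 (chr7:23310209-23470491, minus strand) is the member nearest to SNHG26 (chr7:22853869-22913785, plus strand), 396 kb away on the same chromosome. It measured 1.47 and 1.88 TPM in the SNHG26-guide libraries of days 2 and 3 and 2.97 and 2.06 TPM in the control libraries. Both SNHG26-guide values lay below both control values. The arm means were 1.68 ± 0.289 and 2.52 ± 0.650 TPM (SD, n = 2 libraries each). The log2 change was -0.38 (SE 0.43, 95% interval -1.57 to 0.81; limma adjusted p = 0.954), with -0.68 on day 2 and -0.08 on day 3. The reads did not follow the same order. They numbered 29 and 42 with SNHG26 guides and 31 and 38 with control guides, a rate ratio of 0.969 (0.686 to 1.37). In the control library of day 2, 1 read lay on IGF2BP3-217, a retained-intron transcript with a genomic span of 5461 bases at chr7:23312373-23317833. This read was worth 1.47 TPM, or 49.5% of the value. In the control library of day 3, 3 reads on IGF2BP3-218, a coding transcript with a genomic span of 36578 bases, gave 26.8%. That transcript also had 1 read in each SNHG26-guide library, which gave 13.5% of the value on day 2 and 9.49% on day 3. With all reads set to the listed span of 160283 bases, the values became 1.32 and 1.71 TPM with SNHG26 guides and 1.55 and 1.59 TPM with control guides. The arms then overlapped, and the log2 change was -0.04. The end of IGF2BP3 overlaps MALSU1 on the opposite strand over 1521 bases. MALSU1 had 21.7 and 11.0 TPM with SNHG26 guides and 14.0 and 8.60 TPM with control guides, and its part in the IGF2BP3 values was not tested.

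**Figure D3:**
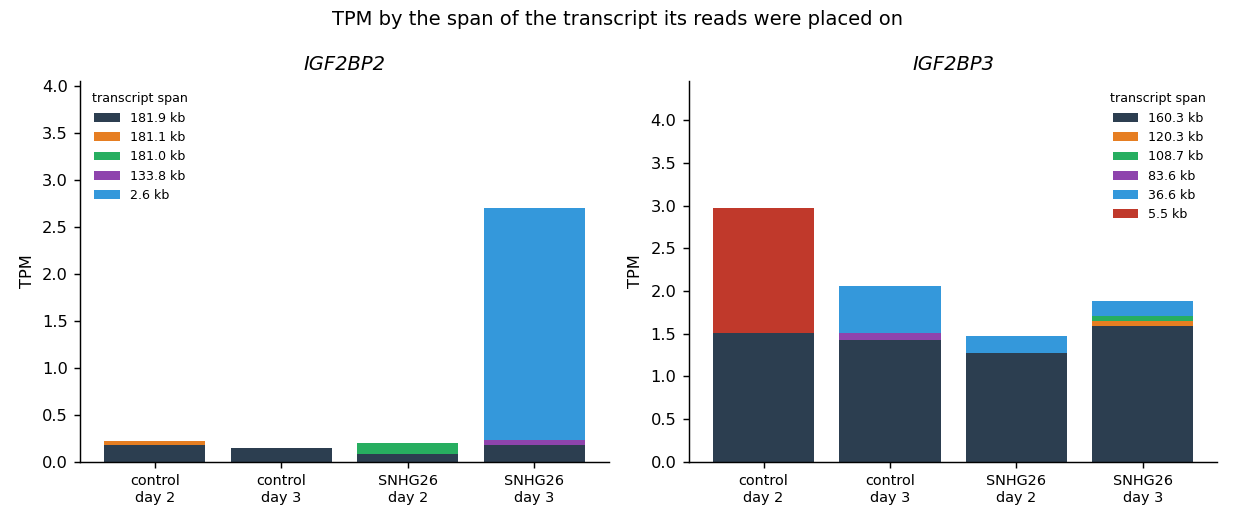
TPM of IGF2BP2 and IGF2BP3 (vertical axes) in each library, with each bar divided by the length of the transcript span that its reads were placed on. A single read on the shortest span makes up 91.5% of the IGF2BP2 bar of the SNHG26-guide library of day 3 and 49.5% of the IGF2BP3 bar of the control library of day 2.

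**Figure D4:**
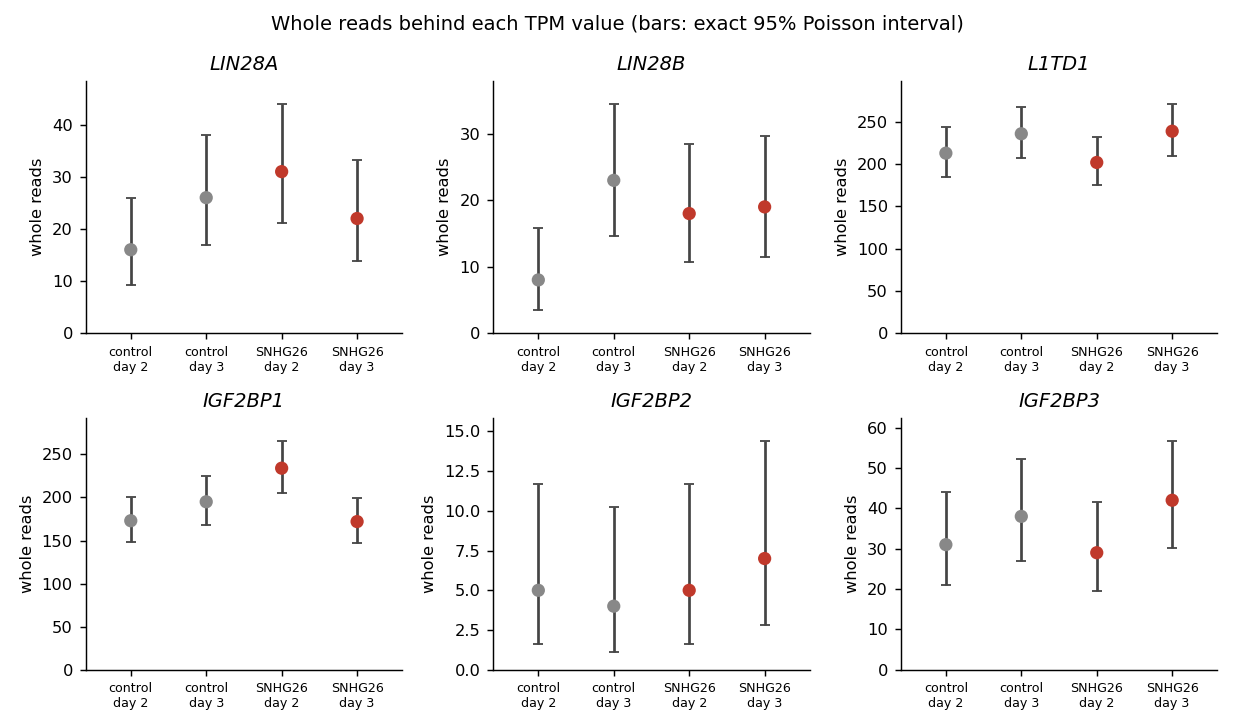
Whole reads (vertical axes, a separate linear scale for each gene) behind each TPM value in each library, with exact 95% Poisson intervals as bars that cover counting error only and no adjustment for depth. IGF2BP2 rests on 4 to 7 reads in each library with intervals that overlap widely, and L1TD1 on 202 to 239.

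By day, the rate ratio of LIN28A was 1.76 (0.933 to 3.44) on day 2 and 0.823 (0.445 to 1.51) on day 3, and that of LIN28B was 2.04 (0.845 to 5.43) and 0.803 (0.414 to 1.54). IGF2BP1 had 1.23 (1.004 to 1.50) on day 2 and 0.858 (0.695 to 1.06) on day 3. The estimates of these 3 genes were thus above 1 on day 2 and below 1 on day 3. All their intervals included 1 except that of IGF2BP1 on day 2, which covers counting error only. L1TD1 had 0.861 (0.706 to 1.05) and 0.985 (0.819 to 1.18), below 1 on both days. IGF2BP3 had 0.849 (0.494 to 1.46) and 1.07 (0.676 to 1.71). IGF2BP2 had 0.908 (0.209 to 3.94) and 1.70 (0.433 to 7.93), the widest intervals of the 6. With 1 library for each arm and day, these ratios compare libraries. In the limma test of the difference between days, 0.0967% of 8274 genes passed and 3.52% had an unadjusted p under 0.05, and none of the 4 members tested reached either.

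The comparison of day 3 with day 2 asked what changed with time in doxycycline in both arms. In the limma test, 0.0363% of 8274 genes passed (3 genes), and 6.61% had an unadjusted p under 0.05. None of the 4 members tested reached either. IGF2BP1 was lower in both day-3 libraries than in both day-2 libraries, as were 18.4% of the genes tested. None of the 4 was higher in both day-3 libraries, as were 17.1%. Its log2 change was -0.39 (SE 0.25, 95% interval -1.08 to 0.30; limma adjusted p = 0.760), with -0.66 in the SNHG26 arm and -0.12 in the control arm. Its read rate on day 3 was 0.781 times that of day 2 (0.677 to 0.902), an interval below 1 for counting error alone. LIN28A (-0.10; limma adjusted p = 0.965), L1TD1 (-0.03; 0.978) and IGF2BP3 (-0.08; 0.978) had small log2 changes with overlapping days. On whole reads at the listed span the day change of IGF2BP3 turned to 0.12, with both day-3 values (1.71 and 1.59 TPM) above both day-2 values (1.32 and 1.55 TPM). LIN28B had a log2 change of 0.26, which did not pass in the fit without the filter (limma adjusted p = 0.832). That of IGF2BP2 was 0.77 as deposited and -0.01 on whole reads. The day-3 to day-2 read rate ratios of the other 5 genes had intervals that include 1: 0.885 (0.579 to 1.35) for LIN28A, 1.40 (0.838 to 2.38) for LIN28B, 0.992 (0.867 to 1.13) for L1TD1, 0.953 (0.367 to 2.50) for IGF2BP2 and 1.16 (0.816 to 1.64) for IGF2BP3.

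The genes of the let-7 pathway around LIN28 were described by lists. Of 14 genes for let-7 processing and turnover, 6 were tested, 0 passed in either direction, and 3 had higher and 3 lower values with SNHG26 guides. The median log2 change was -0.05, beside 0.04 for all genes tested. RAN, the GTPase that drives nuclear export of the precursors, measured 1002 and 933 TPM with SNHG26 guides and 1031 and 809 TPM with control guides. PRKRA, a partner of Dicer, had a log2 change of -0.52. TARBP2, another Dicer partner, was picked out after its values were seen: it had 13.2 and 23.9 TPM with SNHG26 guides and 4.81 and 5.23 TPM with control guides. Its log2 change of 1.65 did not pass (limma adjusted p = 0.852). Of 7 host genes of let-7 hairpins, 5 were listed. MIRLET7A1HG, MIRLET7IHG and MIR100HG were at 0 in all 4 libraries, and HUWE1 and WDR82, protein-coding hosts, were tested with no pass. HUWE1 was listed at 0 and at 5.90 TPM with SNHG26 guides and at 0.196 and 0.055 TPM with control guides. The reads and spans behind the values of HUWE1 and TARBP2 were not resolved, so the weight of reads on short spans was not tested. The libraries were made from polyadenylated RNA, and mature let-7 was not measured.

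Of 16 known let-7 targets, 12 were tested, 0 passed, and 5 had higher and 7 lower values, with a median log2 change of -0.18. That median was 0.0063 without the control library of day 2, -0.07 without the SNHG26-guide library of day 3, -0.02 without the filter on low values and 0.08 among genes averaging 5 TPM or more, so its sign was not stable. HMGA1, a chromatin protein, measured 293 and 256 TPM with SNHG26 guides and 349 and 191 TPM with control guides. NRAS, a small GTPase, had a log2 change of -0.19, with overlapping arms.

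For the IGF2BP proteins, 11 of 16 genes of the m6A machinery were tested, 0 passed, 5 had higher and 6 lower values, and the median log2 change was -0.04. METTL3, the catalytic subunit of the m6A methyltransferase, measured 21.2 and 21.3 TPM with SNHG26 guides and 18.9 and 14.2 TPM with control guides. RBM15B, a subunit that helps place it, had a log2 change of -0.14. YTHDF3, a cytoplasmic m6A reader, was also picked out after its values were seen. It measured 0.849 and 1.33 TPM with SNHG26 guides and 11.1 and 8.30 TPM with control guides, a log2 change of -2.35 that did not pass (limma adjusted p = 0.395). The reads and spans behind the YTHDF3 values were not resolved. All 8 protein partners of IGF2BP1 in the list were tested, with 0 passing, 4 higher and 4 lower, and a median of 0.07. YBX1, a cold-shock protein, had 338 and 261 TPM with SNHG26 guides and 321 and 289 TPM with control guides, and PABPC1, the poly(A)-binding protein, had a log2 change of -0.21. Of 8 known client mRNAs, 7 were listed and 3 were tested, with 0 passing. ACTB measured 2951 and 3932 TPM with SNHG26 guides and 2944 and 2749 TPM with control guides, and MYC measured 15.6 and 17.7 against 10.5 and 10.7 TPM. Both were higher without overlap, as were 16.1% of all genes tested, and neither passed (limma adjusted p = 0.935 for each); for ACTB the day-2 libraries differed by only 0.0032 on the log2 scale. CTNNB1, the other client tested, had a log2 change of -0.09 with overlapping arms.

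Other embryonic RNA-binding proteins and the neighbours of IGF2BP3 gave the same count. Of 13 further RNA-binding proteins, 10 were tested and 0 passed, with 3 higher, 7 lower and a median log2 change of -0.06. YBX3, a cold-shock protein, measured 26.1 and 18.5 TPM with SNHG26 guides and 30.7 and 16.2 TPM with control guides, a log2 change of -0.02 with overlapping arms. Of 10 genes between and around SNHG26 and IGF2BP3, 9 were tested and 0 passed, with 6 higher, 3 lower and a median of 0.08. TOMM7, a mitochondrial import subunit, had a log2 change of 0.08. KLHL7, a ubiquitin ligase adaptor, had 12.8 and 39.2 TPM with SNHG26 guides and 21.0 and 34.3 TPM with control guides.

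The medians of these short lists moved when each library was left out in turn. They ranged from -0.20 to 0.09 for let-7 processing (without the control library of day 3 and of day 2), and from -0.37 to 0.16 for the m6A machinery (without the SNHG26-guide library of day 2 and the control library of day 3). For the IGF2BP clients they ranged from 0.05 to 0.47 (without the SNHG26-guide library of day 3 and of day 2), and the median was -0.09 without the filter on low values. For the partners they ranged from 0.05 to 0.18 (without the control library of day 3 and of day 2), and the median was -0.04 among genes averaging 5 TPM or more. The other RNA-binding proteins ranged from -0.15 to 0.32 (without the SNHG26-guide and the control library of day 2), and the chromosome 7 neighbours from 0.06 to 0.14 (without the SNHG26-guide and the control library of day 3). No direction of a list was therefore read from its median.

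**Figure D5:**
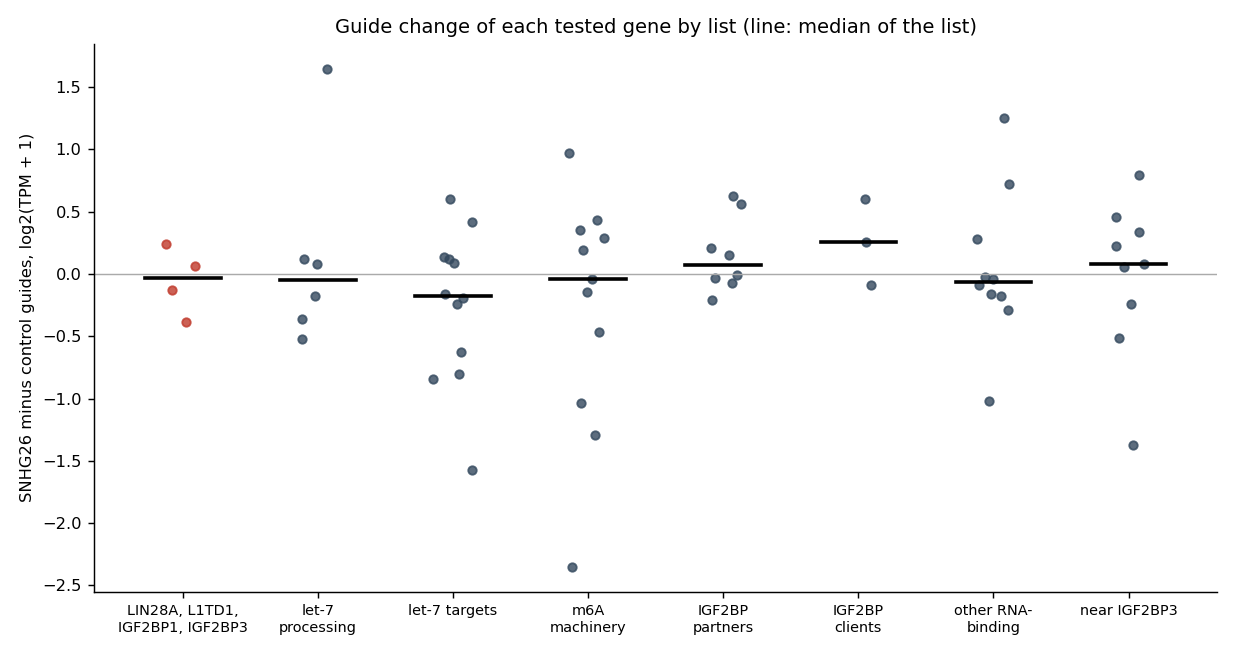
Log2 change, SNHG26 guides minus control guides on the log2(TPM + 1) scale, of each tested gene of 7 lists and of the 4 tested members; each point is a gene and each line a median. The medians lie from -0.18 for the let-7 targets to 0.26 for the IGF2BP client mRNAs, and no gene shown passed the test; the medians move when single libraries are left out.

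The genes most like the members across the 4 libraries were sought among 2032 genes averaging 20 TPM or more, by the root mean square difference of centred log2(TPM + 1). LIN28A was closest to FTSJ3 (0.0378) and RPS15AP24 (0.0540), and L1TD1 to MRPS18C (0.0245) and RPL12 (0.0317). IGF2BP1 was closest to NDUFV1 (0.0376) and SRP19 (0.0606), and IGF2BP3 to METTL17 (0.0323) and TSPYL4 (0.0675). RPS15AP24 is a ribosomal protein pseudogene, whose reads can be shared with its parent gene. With 4 libraries and so many candidates, these are descriptions only.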

How the data were processed

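Poly(A) RNA of 4 H9 libraries was converted to cDNA, amplified for 14 PCR cycles and read by Nanopore sequencing, per the labels' protocols. The authors deposited 1 table of TPM values; minimap2 2.24-r1122 and GRCh38 are named in the submitters' processing notes. The counting tool, annotation release and filters are not given in the sources used here.

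Groups were taken from the labels. limma 3.58.1 in R 4.3.3 was fitted to log2(TPM + 1) of genes averaging 1 TPM or more, with a mean-variance trend and Benjamini-Hochberg adjustment at 0.05, for guide arm, for day, and for the difference between days (crossed pairs of libraries, whose residual holds both other effects). The script was tested on simulated data. Whole reads were recovered as multiples of the worth of 1 read over the listed span and the spans of GENCODE and RefSeq. No count test was run, since only members were resolved. Sequences came from RefSeq and GENCODE on GRCh38. Of MATR3, listed in 2 rows, the higher was used. LIN28B and IGF2BP2 were below the filter.

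Named genes were all members, and from each list the 2 with the highest mean TPM and that with the largest change among those averaging 20 TPM or more; a gene that this rule names is not reported here. Members and lists were chosen with earlier results of these data known. Libraries with the same number share the day of doxycycline; over 8274 genes the correlation of their deviations from the arm means was 0.046. Alternatives were another pseudocount, filter, scaling or variance prior, a replicate block, and leaving out each library.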

Additional observations from a re-analysis of the deposited data

How the results depend on the processing

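None of the 6 genes passed the limma test for guide arm, for day or for the difference between days under any alternative in which it was tested; LIN28B was tested only without a filter, and IGF2BP2 only so or with at least 20 estimated reads. The guide count was 0 of the genes tested under all of them. With a replicate block for day, the guide count was 0 (359 genes at an unadjusted p under 0.05), and the counts for day and for the difference between days were also 0; with 2 pairs and a correlation of 0.046 the shared number was not treated as pairing. The 3 genes called for day fell to 0 without a variance trend, with at least 20 estimated reads, without a filter, with a pseudocount of 0.1 or 5, after quantile normalization, and without any 1 library (range 0 to 0). The 8 genes called for the difference between days became 13 among genes averaging 5 TPM or more and 14 with a pseudocount of 0.1, and 0 without a trend, with at least 20 estimated reads, without a filter and with a pseudocount of 5. The cause was not tested.

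Leaving out each library in turn, the guide change (log2) ranged from -0.055 to 0.54 for LIN28A, -0.14 to 0.41 for LIN28B, -0.19 to -0.06 for L1TD1, -0.27 to 0.39 for IGF2BP1, 0.02 to 1.64 for IGF2BP2 and -0.57 to -0.19 for IGF2BP3. The sign turned for LIN28A (-0.055) and IGF2BP1 (-0.27) without the SNHG26-guide library of day 2, and for LIN28B (-0.14) without the control library of day 2. For the day change it turned for IGF2BP2 (-0.077) without the SNHG26-guide library of day 3, for IGF2BP3 (0.26) and L1TD1 (0.075) without the control library of day 2, and for LIN28A without the SNHG26-guide library of day 2 (0.27) or day 3 (0.03). The day change ranged from -0.47 to 0.27 for LIN28A, 0.041 to 0.47 for LIN28B, -0.14 to 0.075 for L1TD1, -0.55 to -0.22 for IGF2BP1, -0.077 to 1.61 for IGF2BP2 and -0.42 to 0.26 for IGF2BP3. A lone library in an arm was assumed to vary like the rest. Whole reads at the listed span, an alternative chosen after seeing the data, gave guide changes of 0.05 for IGF2BP2 and -0.04 for IGF2BP3 and a day change of 0.12 for IGF2BP3, since reads on short spans then no longer weigh more. Depth limits LIN28B and IGF2BP2 most, with 68 and 21 reads in all.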
